A study of Mus musculus with 136 samples.

Results

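The Cyp4a genes encode cytochrome P450 enzymes that add a hydroxyl group to the terminal carbon of fatty acids. Their 131I and saline levels were followed here in 6 mouse tissues. The members were all probes of the array that are annotated to a single gene whose symbol starts with Cyp4a. They were 4 of 25697 probes and 4 of 16593 genes with a probe: *Cyp4a12a* (ILMN_1254109), *Cyp4a12b* (ILMN_1217072), *Cyp4a14* (ILMN_2691680) and *Cyp4a31* (ILMN_2960044). *Cyp4a10* was not analysed here, since none of these probes carries its symbol. In the RefSeq annotation of assembly GRCm38.p6 all Cyp4a genes lie in a single cluster on chromosome 4, in the order *Cyp4a12a*, *Cyp4a12b*, *Cyp4a14*, *Cyp4a10*, *Cyp4a31* and *Cyp4a32* among those with related sequence. *Cyp4a12a* and *Cyp4a12b* are close to identical, and so are *Cyp4a10*, *Cyp4a31* and *Cyp4a32*, so that a probe may also take up RNA of a neighbour. The gene named for each probe is therefore uncertain within these 2 sets.

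The study asked whether the response of normal tissues to 131I depends on the time of day of the injection. Female BALB/c nude mice, 9 months old, received 90 kBq 131I intravenously in saline, or saline alone, at 9:00, 12:00 or 15:00, and were killed 24 h later. All mice, controls too, were athymic, and each experimental group was kept in a cage of its own, so that a group and its cage cannot be told apart. RNA of the thyroid, liver, kidney cortex, kidney medulla, spleen and lungs was measured on Illumina MouseRef-8 BeadChips in 130 replicates: 71 came from 131I mice and 59 from saline mice, and each of 36 groups held 3 or 4. The tissues came from the same mice, so tissues of 1 time point do not count as separate evidence. Between 34.7% and 51.9% of probes passed the detection limit on an array (detection p under 0.01). The number of arrays limits the precision. All levels are log2 normalized intensities, in which 1 unit is a factor of 2. They compare samples for a given probe and do not rank different probes.

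The CYP4A enzymes act in the endoplasmic reticulum and start omega-oxidation, the route by which fatty acids become dicarboxylic acids that are then shortened in peroxisomes. In the kidney they also convert arachidonic acid to 20-HETE, a lipid that acts on blood vessels and on salt transport. In liver and kidney of mice, *Cyp4a10* and *Cyp4a14* are classical targets of PPARA, the nuclear receptor that is activated by fatty acids during fasting and by fibrate drugs. *Cyp4a12a* encodes the main 20-HETE synthase of the mouse kidney and is known for its induction by androgens.

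The kidney held all 4 transcripts, the liver held *Cyp4a14* and *Cyp4a31*, the lungs held *Cyp4a12a* and *Cyp4a12b*, and the thyroid held none. This order was read from the saline samples after all arrays had been normalized together, since levels normalized within a tissue cannot be set against those of another. *Cyp4a12a* averaged 10.17 ± 0.83 in saline cortex (SD, n = 10), 8.72 ± 0.99 in saline medulla (SD, n = 9) and 4.98 ± 0.69 in saline liver (SD, n = 10). The difference between cortex and medulla was 1.52 ± 0.34 (SE, called), at a background of 8.04% of 16587 probes called between these tissues. A call, here and below, needs an adjusted p under 0.01 together with a change of 1.5-fold or more. *Cyp4a12b* was also higher in cortex than in medulla, by 1.21 ± 0.30 (SE, adjusted p = 0.00133, limma).

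*Cyp4a14* also had its highest mean in the cortex, but of the 3 pairs of cortex, medulla and liver only cortex and liver were called different. It averaged 12.85 ± 0.82 in saline cortex (SD, n = 10) and 12.02 ± 0.94 in saline medulla (SD, n = 9), a difference of 0.90 ± 0.51 that was not called (SE). Saline livers averaged 10.36 ± 2.90 (SD, n = 10) and covered 6.54 to 14.23. At 12:00 the saline cortex samples (13.95 to 14.08) lay within the range of the saline livers (13.32 to 14.23). Over all times the cortex stood above the liver by 2.31 ± 0.50 (SE, called), at a background of 35.5%. The difference between medulla and liver was not called (1.41 ± 0.51, SE), at a background of 38.4%. That difference was called once the lung sample described further on had been left out of the fit, a step added after seeing the data, and also without background correction and from the deposited normalized values. *Cyp4a31* had 9.36 ± 0.65 in saline cortex (SD, n = 10), 8.92 ± 0.84 in saline medulla (SD, n = 9) and 6.78 to 11.94 in saline liver (n = 10), and none of these 3 pairs differed beyond the error of the fit. In the thyroid no array showed any of the 4 probes above background. In the spleen 1 replicate did, described with the lungs.

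**Figure D1:**
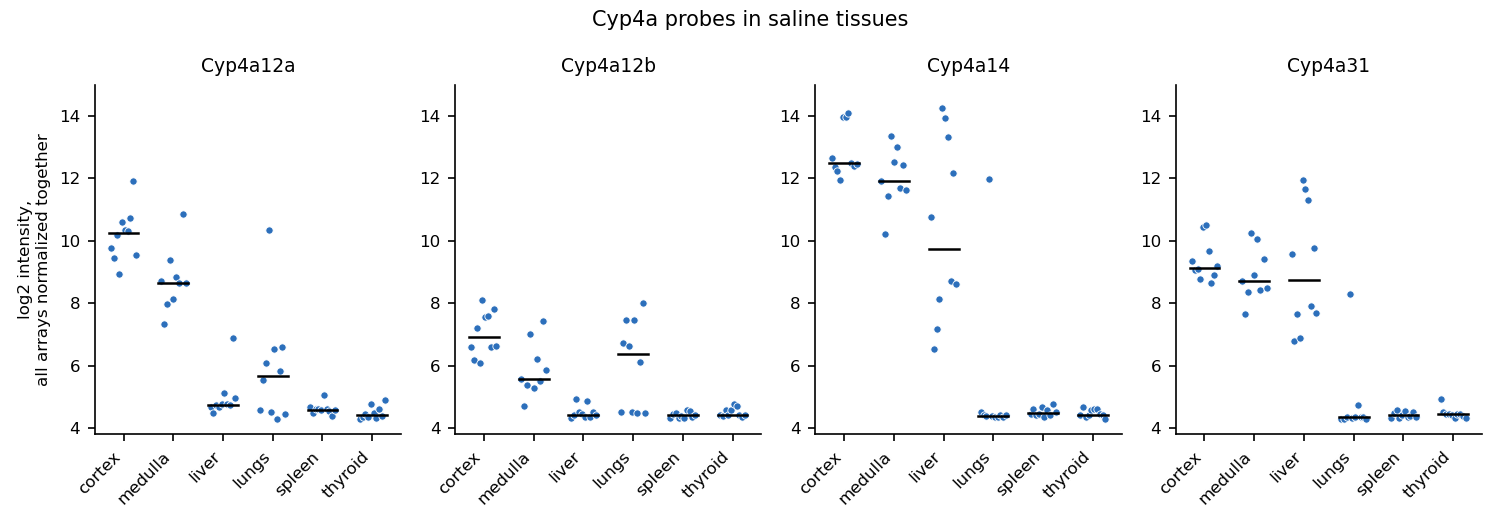
Levels of the 4 Cyp4a probes in saline samples of 6 tissues (y axis, log2 intensity after all arrays were normalized together), with a point for each replicate in order of injection time and a line at the median. The cortex has the highest median of each probe, liver Cyp4a14 runs from 6.54 to 14.23, and single lung samples of Cyp4a14 and Cyp4a31 stand far above the others.

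The test took in each probe that was above background on 3 or more arrays in that tissue. That left *Cyp4a14* and *Cyp4a31* in the liver, all 4 in cortex and medulla, *Cyp4a12a* and *Cyp4a12b* in the lungs, and none in spleen and thyroid. The family was chosen by its 12:00 pattern in liver and cortex, that is by the *Cyp4a14* levels and differences in these comparisons. Values at 12:00 in these tissues, of the members and of other genes, are therefore a description without a p-value. Tests are given for the other times, the medulla and the lungs.

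In the liver at 12:00 the *Cyp4a14* levels were 9.21, 9.34, 9.70 and 5.33 in 131I samples, against 14.39, 14.13 and 13.62 in saline samples. The groups did not overlap, and the lowest 131I sample, replicate 4, lay at background. The difference was -5.65 ± 1.15 (SE), a 50.2-fold lower mean in 131I livers. *Cyp4a31* had 7.30, 8.61, 8.37 and 6.12 in 131I samples, against 12.21, 11.88 and 11.45 in saline samples. Its difference was -4.25 ± 0.69 (SE), a 19.0-fold lower mean in 131I livers, again without overlap. Both tested members were called lower, where 0.908% of all 11564 liver probes were, and both lay apart, where 7.32% of probes did so in this direction. Since this comparison was in view when the family was chosen, nothing is read from these counts. Without 131I replicate 4, and without any of the 3 saline replicates in turn, the *Cyp4a14* difference was no longer called (-4.63 without that 131I replicate, and -5.48, -5.61 and -5.86 without saline replicates 1, 2 and 3), while that of *Cyp4a31* stayed called each time. In bulk tissue, fewer cells of a type and less RNA per cell cannot be told apart. The 18 measured hepatocyte markers averaged 13.39 ± 0.05 in 131I livers (SD, n = 4) and 13.14 ± 0.20 in saline livers (SD, n = 3) at 12:00, and their part in the result was not tested.

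The high samples were those of the saline group at 12:00. At 9:00 the *Cyp4a14* levels were 7.30, 11.40, 7.81 and 8.18 in 131I livers, against 10.85, 6.17, 6.81 and 7.86 in saline livers. At 15:00 they were 8.44, 9.49, 8.25 and 10.56 in 131I livers, against 8.51, 12.49 and 8.40 in saline livers. No sample of these 4 groups reached the lowest saline sample of 12:00. The difference between 131I and saline was 0.75 at 9:00 (95% CI -1.46 to 2.96, adjusted p = 0.996, limma) and -0.61 at 15:00 (95% CI -3.00 to 1.77, adjusted p = 0.861, limma), intervals that still hold changes of several fold. Of all liver probes 0% were called at 9:00 and 0.0259% at 15:00. For *Cyp4a31* it was 0.78 at 9:00 (95% CI -0.55 to 2.10, adjusted p = 0.983, limma) and -0.14 at 15:00 (95% CI -1.58 to 1.29, adjusted p = 0.956, limma).

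Saline livers of 12:00 stood 6.12 ± 1.15 (SE) above those of 9:00 for *Cyp4a14* and 4.42 ± 0.69 (SE) for *Cyp4a31*. Both were called, at a background of 1.31% of liver probes called higher. The call of *Cyp4a14* was lost without saline replicate 2 of 9:00 (5.54) and without saline replicate 1 or 2 of 12:00 (5.95 and 6.08). The difference of saline livers of 15:00 from those of 12:00 was -4.24 ± 1.23 (SE, not called) for *Cyp4a14* and -3.62 ± 0.74 (SE, called) for *Cyp4a31*, at a background of 0.969%. The call of *Cyp4a31* was lost in 5 of 6 fits that left out a saline replicate of either time, with differences of -3.81 to -3.18, and held only without replicate 2 of 15:00 (-4.36). The change of the 131I response between times was not called for either, where it was for 0.545% of liver probes. The response at 12:00 minus that at 9:00 was -6.40 for *Cyp4a14* and -5.02 for *Cyp4a31*, differences not tested by themselves. With each replicate left out in turn, the change was called in 2 of 22 fits for *Cyp4a31* and in 0 of 22 for *Cyp4a14*. Among the 131I groups no comparison between times called a member in liver, cortex, medulla or lungs (limma). Between 12:00 and 9:00 the background was 0.0778% in the liver and 0% in the others. Between 15:00 and 9:00 it was 0.873% in liver, 0.0704% in cortex, 0.159% in medulla and 0.0142% in lungs, and between 15:00 and 12:00 it was 0% in all 4. Set against the saline livers of 9:00 and 15:00 together, 131I livers of 12:00 differed by -0.47 for *Cyp4a14* and by -0.23 for *Cyp4a31*. Neither was called, where 0 of all liver probes were, so nothing is read from the missing calls. This last comparison was chosen after the data had been seen.

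**Figure D2:**
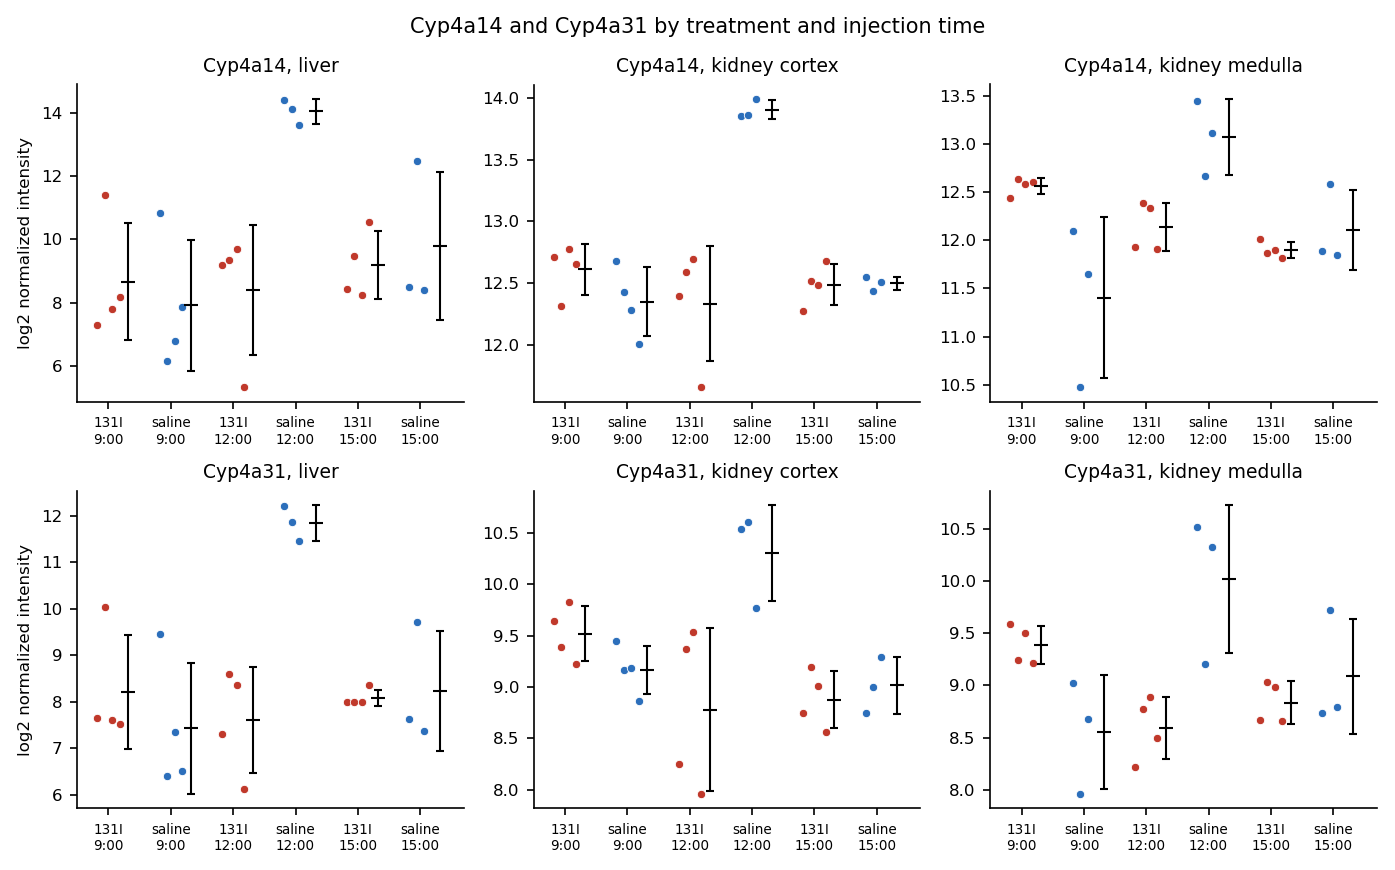
Cyp4a14 (top) and Cyp4a31 (bottom) in liver, kidney cortex and kidney medulla (y axis, log2 intensity normalized within the tissue, scaled per panel), with 131I samples in red and saline samples in blue at each injection time. Points are replicates and bars give the mean and SD. The saline samples of 12:00 are the highest group in every panel, and those in the liver lie between 13.62 and 14.39 for Cyp4a14.

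In the cortex the saline samples of 12:00 were again the highest *Cyp4a14* group, with a smaller distance to the others. *Cyp4a14* was at 12.40, 12.59, 12.69 and 11.66 in 131I samples of 12:00, against 13.85, 13.86 and 13.99 in saline samples. Every other cortex sample, of either treatment, lay between 12.01 and 12.77. The difference was -1.56 ± 0.18 (SE), a 2.96-fold lower mean in 131I cortex. It was called, at a background of 0.125% of 12776 probes called lower. *Cyp4a31* had 8.25, 9.37, 9.54 and 7.96 in 131I samples, against 10.53, 10.60 and 9.77 in saline samples, a difference of -1.52 ± 0.30 (SE) without overlap of the groups that was not called. Without 131I replicate 2 or 3 it was called (-1.72 and -1.77).

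*Cyp4a12b* was at 6.60, 6.08, 6.08 and 5.71 in 131I cortex of 12:00, against 8.20, 7.65 and 7.66 in saline cortex. The difference was -1.72 ± 0.32 (SE), without overlap and not called. *Cyp4a12a* had 9.12, 9.94, 9.67 and 9.13 in 131I samples, against 10.68, 10.45 and 10.39 in saline samples, a difference of -1.04 ± 0.42 (SE) that was not called either. All 4 members thus lay lower in each 131I sample than in each saline sample of 12:00, as did 4.85% of all cortex probes, and 1 of the 4 was called. This comparison too was in view when the family was chosen, and nothing is read from the count. The 16 measured proximal tubule markers averaged 10.38 ± 0.23 in 131I cortex (SD, n = 4) and 10.04 ± 0.38 in saline cortex (SD, n = 3) at 12:00. The 16 measured fat markers averaged 6.83 ± 0.92 in 131I cortex and 5.98 ± 0.14 in saline cortex. The part of either in the result was not tested.

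At 9:00 and 15:00 no member of the cortex was called, and neither was any other probe (0% of 12776 at either time). The *Cyp4a14* difference between 131I and saline was 0.26 at 9:00 (95% CI -0.09 to 0.62) and -0.01 at 15:00 (95% CI -0.39 to 0.37), given without a p-value since both were known beforehand. These *Cyp4a14* intervals leave room for less than a doubling or halving. At 15:00 the intervals of *Cyp4a12a* (-0.68, 95% CI -1.55 to 0.20, adjusted p = 0.801, limma) and *Cyp4a12b* (-0.50, 95% CI -1.16 to 0.15, adjusted p = 0.807, limma) still hold more than a halving. The *Cyp4a14* response at 12:00 minus that at 9:00 was -1.83. That difference was not tested by itself. The F test of the response over all 3 times passed for *Cyp4a14*, where 0.00783% of cortex probes did. With each replicate left out in turn it did not pass in 15 of 22 fits. It is given without a p-value because it was known beforehand, and nothing is read from its passing. In saline cortex *Cyp4a14* stood 1.55 ± 0.18 (SE) higher at 12:00 than at 9:00, where 0.0704% of probes were called higher. At 15:00 it differed from 12:00 by -1.40 ± 0.20 (SE), where 0.157% were called lower.

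In the medulla only *Cyp4a31* was called at 12:00, and differences between members were not tested. At 12:00 *Cyp4a31* was at 8.22, 8.77, 8.89 and 8.50 in 131I samples, against 10.51, 9.20 and 10.32 in saline samples. The difference of -1.42 ± 0.28 was called (SE, adjusted p = 0.00311, limma), where 2.28% of 13247 probes were called lower. The saline mice of 12:00 are the same as in liver and cortex, so this is no independent support. *Cyp4a14* had 11.93, 12.38, 12.33 and 11.91 in 131I medulla, against 13.45, 12.67 and 13.12 in saline medulla. Its difference of -0.94 ± 0.26 did not pass (SE, adjusted p = 0.0201, limma), although the groups did not overlap. Of all medulla probes 12.8% lay apart in this direction. For *Cyp4a12a* the difference was -0.06 (95% CI -0.98 to 0.86, adjusted p = 0.944, limma) and for *Cyp4a12b* it was -0.45 (95% CI -1.41 to 0.51, adjusted p = 0.56, limma), with overlapping groups. Without 131I replicate 1, saline replicate 1 or saline replicate 3, *Cyp4a31* was no longer called (-1.30, -1.17 and -1.27).

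At 9:00 the medulla samples stood the other way round. *Cyp4a14* was at 12.44, 12.63, 12.59 and 12.60 in 131I samples, against 12.09, 10.47 and 11.65 in saline samples. Every 131I sample lay above every saline sample, and the difference of 1.16 ± 0.26 did not pass (SE, adjusted p = 0.0282, limma). *Cyp4a31* differed by 0.83 ± 0.28 (SE, adjusted p = 0.108, limma), likewise without overlap, where 7.95% of all medulla probes lay apart in this direction. The others, *Cyp4a12a* and *Cyp4a12b*, differed by 1.10 ± 0.44 and 0.98 ± 0.46 with overlap (SE, adjusted p = 0.184 and 0.264, limma). No probe of the medulla was called at 9:00 (0% of 13247). Without saline replicate 1 the *Cyp4a14* difference was 1.51 and called. The repeat array of 131I replicate 3, averaged into this group, correlated less with its own replicate (r = 0.979) than with another of the group (r = 0.988), and differed from it by up to 0.90 for a member. Leaving out repeat arrays ended no member's call in the medulla. Between times, saline medulla of 12:00 stood above that of 9:00 by 1.67 ± 0.28 for *Cyp4a14* (SE, adjusted p = 0.013, limma). For *Cyp4a31* this difference was 1.46 ± 0.30 (SE, adjusted p = 0.0628, limma), and neither was called. The 131I medulla of 12:00 differed from that of 9:00 by -0.43 ± 0.24 for *Cyp4a14* and -0.79 ± 0.26 for *Cyp4a31* (SE, adjusted p = 0.641 and 0.444, limma).

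At 15:00 no member differed beyond the error in the medulla, where again 0% of probes were called. The difference between 131I and saline was -0.21 for *Cyp4a14* (95% CI -0.75 to 0.33, adjusted p = 0.933, limma) and -0.25 for *Cyp4a31* (95% CI -0.84 to 0.34, adjusted p = 0.922, limma). For *Cyp4a12a* it was -0.64 (95% CI -1.56 to 0.28, adjusted p = 0.867, limma) and for *Cyp4a12b* -0.56 (95% CI -1.52 to 0.40, adjusted p = 0.887, limma).

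The medulla samples also differed in what they contained. The 19 measured collecting duct and papilla markers averaged 7.78 ± 0.52 in 131I samples (SD, n = 4) and 9.06 ± 0.47 in saline samples (SD, n = 3) at 9:00, and 7.30 ± 0.38 in 131I samples (SD, n = 4) and 9.07 ± 0.30 in saline samples (SD, n = 3) at 12:00. The groups did not overlap at either time. Proximal tubule markers averaged 10.54 ± 0.09 in 131I samples and 10.18 ± 0.38 in saline samples at 9:00, and 10.53 ± 0.05 in 131I samples and 10.18 ± 0.22 in saline samples at 12:00. At 15:00 the collecting duct and papilla markers covered 7.21 to 8.58 in 131I samples and 8.33 to 8.86 in saline samples. Proximal tubule markers averaged 10.34 ± 0.15 in 131I samples and 10.04 ± 0.26 in saline samples at 15:00 (SD). The part of tissue composition in the differences of the medulla was not tested.

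**Figure D3:**
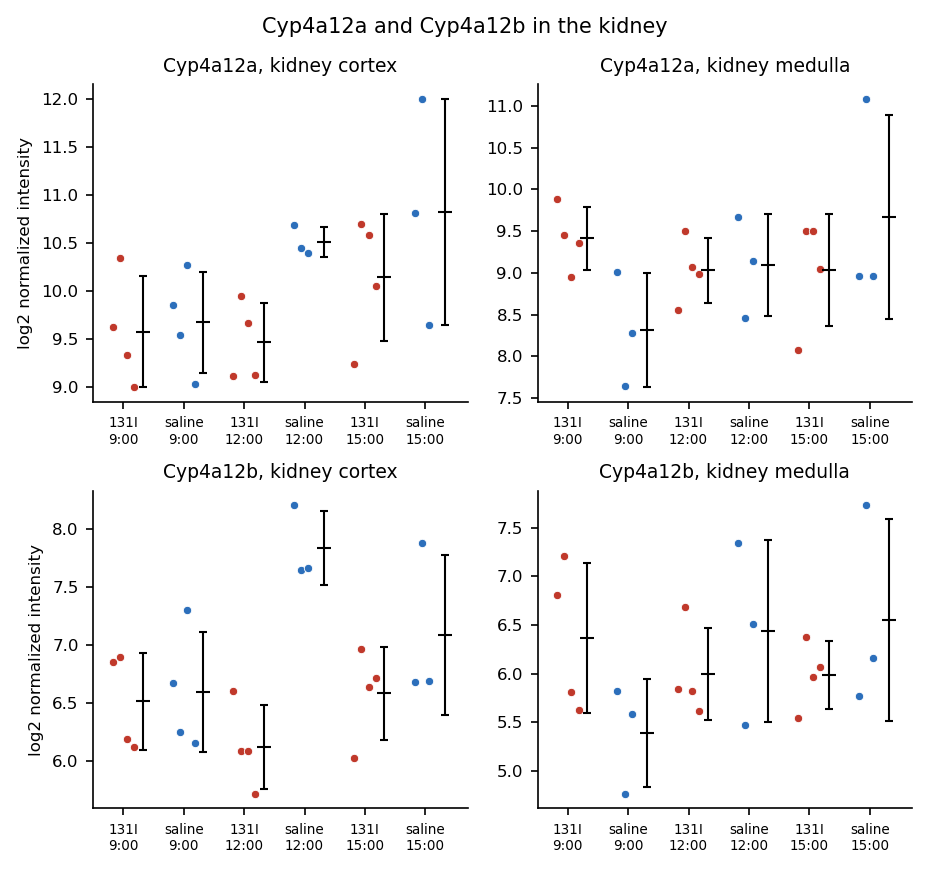
Cyp4a12a (top) and Cyp4a12b (bottom) in kidney cortex and kidney medulla (y axis, log2 intensity normalized within the tissue, scaled per panel), with 131I samples in red and saline samples in blue at each injection time. Points are replicates and bars give the mean and SD. The highest point of each Cyp4a12a panel, 12.00 in the cortex and 11.09 in the medulla, is saline replicate 2 of 15:00.

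The highest *Cyp4a12a* levels were those of saline replicate 2 of 15:00, with 12.00 in the cortex and 11.09 in the medulla. All other cortex samples were at or below 10.82 and all other medulla samples at or below 9.88. The same replicate had the highest liver *Cyp4a14* outside the saline group of 12:00 (12.49) and the highest of the liver *Cyp4a12a* levels (6.52), a probe that was above background in only 2 liver samples. The labels give the number 2 to a sample of each tissue without saying that it is the same mouse. In both parts of the kidney this replicate had *Kap* at background, at 4.43 in the cortex and 4.42 in the medulla. *Kap* encodes an abundant kidney protein that is regulated by androgens, and its other samples had 6.83 to 14.34 in the cortex and 13.84 to 14.61 in the medulla. Over the 22 cortex replicates *Cyp4a12a* ran against *Kap*, with Pearson's r = -0.82 and Spearman's rho = -0.80 (r = -0.73 and rho = -0.77 over the 21 others). In the medulla r was -0.66 and rho was -0.48 over 21 replicates, and without that replicate r was -0.38 and rho was -0.40, so that r rested on it more than rho did. *Kap* was picked after its values had been seen and the points share their dissection and normalization, so these correlations are a description.

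**Figure D4:**
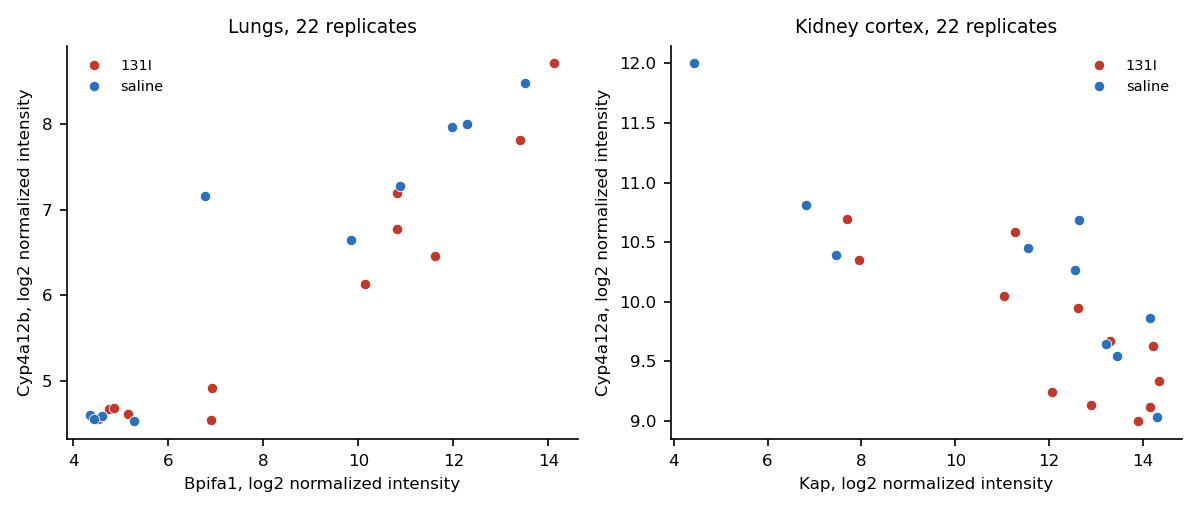
Cyp4a12b against Bpifa1 in the lungs (left) and Cyp4a12a against Kap in the kidney cortex (right), with a point for each of 22 replicates, 131I in red and saline in blue (both axes, log2 intensity normalized within the tissue). Lung samples with high Bpifa1 have Cyp4a12b up to 8.71, apart from 1 saline sample with 7.16 at a Bpifa1 level of 6.76, and the cortex sample with the lowest Kap has the highest Cyp4a12a.

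In the lungs *Cyp4a12b* was either clearly present or at background within the same group. At 9:00 it was 6.13, 4.92, 4.67 and 4.54 in 131I samples, against 4.60, 7.27, 7.97 and 7.16 in saline samples. The last of these, saline replicate 4, held kidney transcripts, as described further on. At 12:00 it was 4.56, 8.71, 7.81 and 4.61 in 131I samples, against 4.58, 4.53 and a value close to 8 in saline samples. At 15:00 it was 6.78, 6.46, 4.69 and 7.20 in 131I samples, against 6.64, 8.48 and 4.55 in saline samples. The groups overlapped at every time, the differences had standard errors of about 1 log2 unit or more, and no lung probe was called (0% of 14051). At 9:00 the *Cyp4a12b* difference was -1.69 (95% CI -3.76 to 0.39, adjusted p = 0.706, limma), and -1.55 without saline replicate 4. The *Cyp4a12a* difference was -2.34 (95% CI -4.27 to -0.40, adjusted p = 0.644, limma), and -1.13 without that sample. At 12:00 and 15:00 the differences were 0.39 and -0.46 for *Cyp4a12a* and 0.72 and -0.28 for *Cyp4a12b*.

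The gene most like *Cyp4a12b* over the 22 lung replicates was *Bpifa1*, a secreted protein of the upper airway lining (r = 0.93, and 0.97 without saline replicate 4 of 9:00). *Otx1* (r = 0.91), *Scgb3a1*, a secretoglobin of airway secretory cells (r = 0.86), and *Cyp2a5*, a cytochrome P450 of the nasal and airway lining (r = 0.86), came next. *Bpifa1* ran from 4.35 to 14.13 between lungs, whereas the 13 measured lung epithelium markers averaged between 11.38 and 12.26 in every sample. *Cyp4a12a* followed *Cyp4a12b* with r = 0.77, and with r = 0.97 without saline replicate 4 of 9:00. This search in the lungs was added after the data had been seen, its points share library preparation and normalization, and what part of the airway each sample held was not tested.

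Saline lung replicate 4 of 9:00 held kidney transcripts. Its *Cyp4a14* level was 12.07, *Cyp4a31* 8.77 and *Cyp4a12a* 10.60, while the other lungs had at most 4.93 for *Cyp4a14*, 4.95 for *Cyp4a31* and 7.53 for *Cyp4a12a*. The proximal tubule transporter *Slc34a1* stood at 14.45 and the kidney enzyme *Miox* at 13.03 in that sample, against at most 5.08 and 5.35 in the other lungs, but *Kap* was at background (4.44). The mean of the 16 proximal tubule markers was 9.17, against at most 5.84 in the other lungs. Without this sample *Cyp4a14* averaged 4.40 ± 0.05 in saline lungs (SD, n = 9), at background. Spleen 131I replicate 1 of 12:00 likewise had *Cyp4a14* at 11.09, *Cyp4a31* at 7.64 and *Cyp4a12a* at 6.99, with *Slc34a1* at 14.11, *Kap* at 14.57 and a proximal tubule marker mean of 9.63, against at most 5.58 in the other spleens. The Cyp4a levels of these 2 samples stand beside kidney markers. The lung sample was part of the lung fits, whose values without it are given above.

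A part of the other genes known to be induced by PPARA was also called lower in 131I than in saline samples of 12:00. These were most of the measured ones in the liver and few in the kidney. Fell and rose, here and below, name the sign of this difference in called genes and not a change over time. In the liver 24 of 41 measured PPARA targets fell in 131I samples and none rose, where 0.908% of all probes fell. The list of 51 genes holds no Cyp4a gene and was drawn up with earlier results of these data known, so that its counts are a description. Its median was -0.93, beside 0.01 over all probes tested, and in 34 of the 41 every 131I sample lay below every saline sample, as in 7.32% of all liver probes. *Acot1*, a cytosolic acyl-CoA thioesterase, fell by 4.54 ± 0.44 on the log2 scale (SE), with 8.35 to 9.63 in 131I livers and 13.19 to 13.90 in saline livers. *Ehhadh*, the bifunctional enzyme that shortens dicarboxylic acids in peroxisomes, fell by 3.47 ± 0.21 (SE). *Fgf21*, a fasting hormone, differed by -2.16 ± 0.62 and was not called (SE). Among the 17 that were not called, the following were picked after their values had been seen. *Cpt1a*, the mitochondrial import enzyme of liver, differed by -0.12 and *Pdk4*, an inhibitory kinase of pyruvate dehydrogenase, by -0.38. The uptake genes *Cd36*, *Slc27a1* and *Slc27a2* differed by -0.84, 0.35 and -0.64. *Cpt1a* levels were 4.51 to 4.83 in 131I livers and 4.55 to 5.25 in saline livers, below a *Cyp4a14* level at background (5.33). The lowest 131I levels of *Cd36* (4.61) and *Slc27a1* (4.62) were as dim. Levels near background can hide a fall, so nothing is read from the differences of *Cpt1a*, *Cd36* and *Slc27a1*.

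The remaining genes that fell in the liver included enzymes of the mitochondrial import and the breakdown of fatty acids. Mitochondrial import was represented by *Cpt1b*, *Cpt2*, *Crat* and *Slc25a20*, with differences of -1.74, -1.11, -1.97 and -0.93. *Cpt1b* was above background in only 1 of the 4 131I livers. Beta-oxidation in mitochondria and peroxisomes was represented by *Decr1* (-1.58), *Eci1* (-1.23), *Eci2* (-0.98), *Acaa1b* (-1.01), *Acaa1a* (-0.93), *Hadhb* (-0.81), *Ech1* (-0.64), *Hsd17b4* (-0.63), *Acadvl* (-0.62) and *Etfdh* (-0.91). Peroxisome growth and transport genes *Pex11a* (-1.91) and *Abcd3* (-1.47), the thioesterases *Acot8* (-1.34) and *Acot4* (-1.06), the lipid droplet coat *Plin2* (-1.86) and the lipase *Mgll* (-1.17) also fell. *Mogat1*, an acyltransferase, was not above background in any 131I liver, averaged 4.85 there and 7.32 in saline livers, and was at least 4.08-fold lower in 131I livers, a bound taken against the dimmest detected signal of each array.

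The enzymes that follow CYP4A in omega-oxidation changed in part. In this comparison 168 of all 11564 liver probes were called either way, and 0.908% were called lower. *Aldh3a2*, the fatty aldehyde dehydrogenase that is also on the PPARA list, fell by 1.13 ± 0.14 (SE) and *Aldh1a1* by 0.96 ± 0.20 (SE) in 131I livers, 2 of 8 measured partners. Of 7 other measured CYP4 genes, *Cyp4f14*, a hydroxylase of leukotrienes and other fatty acids, rose by 1.05 ± 0.14 (SE) and none fell. Among 12 measured genes of eicosanoid metabolism the epoxide hydrolases *Ephx1* (-1.35) and *Ephx2* (-1.20) fell and *Cyp2c70* rose (0.95). None of 15 PPAR regulators, 16 genes of fatty acid synthesis or 15 genes of fasting and gluconeogenesis was called in the liver at 12:00 (limma). For lists of this size that is close to the share of all probes, so nothing is read from it. Closest to a call in these lists were *Elovl5* and *Me1*, both of fatty acid synthesis, with differences of -0.66 and -1.67.

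**Figure D5:**
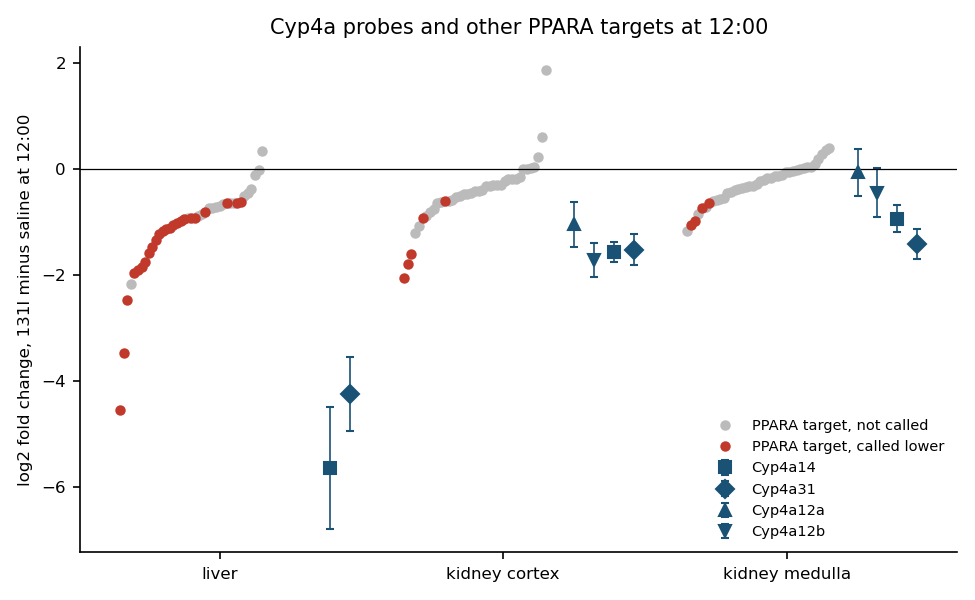
Log2 fold change of 131I over saline at 12:00 (y axis) for each measured PPARA target, ordered within liver, kidney cortex and kidney medulla, and for the Cyp4a probes with their SE. Called genes (red) lie below 0 in all 3 tissues, 24 of them in the liver, and the 2 liver Cyp4a probes lie at -5.65 and -4.25. Mogat1 in the liver is drawn at its fitted value.

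In the cortex 5 of 39 PPARA targets fell at 12:00, *Acaa1b*, *Acot1*, *Ech1*, *Eci1* and *Ehhadh*, and all 5 were among those that fell in the liver. *Acot1* fell by 2.05 ± 0.31 (SE) and *Ehhadh* fell by 1.79 ± 0.24 (SE). The median of the list was -0.42, beside 0.00 over all probes. Of the other lists only *Scd2*, a desaturase of fatty acid synthesis, was called, with -1.80 ± 0.29 (SE). In the medulla 4 of 40 PPARA targets fell, *Acot1*, *Acot2*, *Acadl* and *Slc25a20*, at a list median of -0.25, beside -0.02 over all probes and with 2.28% of all probes called lower. *Acot2* was above background in only 1 of the 4 131I samples. There *Ephx1* and *Scd2* fell and the fasting genes *Pck1* (1.65), an enzyme of gluconeogenesis, and *Igfbp1* (1.47), a binding protein of insulin-like growth factors, rose. No PPARA target was called at 9:00 or 15:00 in any of these 3 tissues (limma). Of all probes 0.0259% were called in the liver at 15:00 and 0% in each of the others, so nothing is read from it. At 15:00 the cortex median was -0.36 with 36 of 39 genes below 0, beside a median of 0.01 and 47.4% below 0 over all cortex probes.

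The saline livers also differed between times in the list. Of the 41 PPARA targets 25 were higher in saline livers of 12:00 than of 9:00 and none was lower, at a background of 1.31%, and 18 were lower at 15:00 than at 12:00 and none higher, at a background of 0.969%. Both saline comparisons share the saline mice of 12:00. In 131I livers none of the 41 was called between any 2 times (limma). Of all liver probes 0.0778% were called there between 12:00 and 9:00, 0.873% between 15:00 and 9:00 and 0% between 15:00 and 12:00. For a list of this size none called is close to these shares, so nothing is read from it.

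Over the 22 liver replicates the gene most like *Cyp4a14* was *Cyp4a31* (r = 0.96), which may share its RNA with relatives of the family. *Entpd5* (r = 0.92), *Acot1* (r = 0.89), *Aldh3a2* (r = 0.88), *Retsat* (r = 0.87), *Lamb3* (r = 0.86), *Mcrip2* (r = 0.85), *Ephx1* (r = 0.85), *Ech1* (r = 0.85) and *Acadm* (r = 0.84) followed. After each group's mean had been taken off, *Cyp4a31* still had r = 0.91 and *Acot1* r = 0.83, so single livers of a group deviated together. In the cortex the 10 most alike were led by *Eci1* (r = 0.88), *Acaa1b* (r = 0.87) and *Scd2* (r = 0.87), and *Cyp4a31* came ninth (r = 0.81). *Cyp4a12b* (r = 0.68) and *Cyp4a12a* (r = 0.34) were less like *Cyp4a14* there, and once the group means had been taken off they had r = 0.15 and 0.16. These correlations are over samples that share groups and normalization and are given as a description.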

How the data were processed

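The authors deposited non-normalized signal intensities, averaged over the beads of a probe, with detection p-values for each array. Their normalized intensities, quantile normalized over all arrays, were deposited separately. Both were made from the same 136 arrays, 6 of them repeat arrays. The columns of the first carry codes, which were resolved to groups from their names and the labels.

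In limma 3.58.1 (R 4.3.3) the background was corrected by normexp from the detection p, with an offset of 16. Quantile normalization was run separately for each tissue on the log2 scale, and a repeat array was averaged into its replicate. All 6 groups of a tissue entered 1 fit with eBayes and an intensity trend. A probe needed a detection p under 0.01 on 3 or more arrays of the tissue to be tested. Calls needed a Benjamini-Hochberg adjusted p, over all tested probes, under 0.01 and a change of 1.5-fold or more. The difference of the response between times was an F test. Tissues were compared after joint normalization. Of the probes, 23978 had 1 symbol and 1719 none in the platform annotation. A gene of a list was represented by its brightest tested probe. Named were all members, every called PPARA target, up to 3 other list genes each way by smallest p, and the 10 genes most correlated with *Cyp4a14*. The fits were tested on simulated data. The alternatives tried were leaving out the background correction, scaling by medians, using the deposited values, testing all probes, dropping repeat arrays, fitting the compared groups only, a replicate block and leaving out each replicate.

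The members and lists were chosen with earlier results of these data known. No slide was given in the sources used here. That the replicates of a group are separate mice is stated by the study. Python 3.11.15 and matplotlib 3.10.9 drew the figures.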

Additional observations from a re-analysis of the deposited data

Results flagged for a closer look

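Of 44 groups of 4 samples of a Cyp4a probe that was tested in the tissue, 3 held a sample far from the other 3, where chance gives about 1 in 20. In 131I livers *Cyp4a14* replicate 4 of 12:00 lay low (5.33, next 9.21), *Cyp4a31* replicate 2 of 9:00 lay high (10.04, next 7.65), and *Cyp4a31* replicate 4 of 15:00 lay high at 8.35, above 3 samples that lay close together. A further 5 such samples belong to probes at background in the rest of their tissue, so that the share by chance does not apply. In saline lungs of 9:00 replicate 4 stood out for *Cyp4a14* (12.07, next sample 4.57) and *Cyp4a31* (8.77, next 4.37), and in 131I spleens of 12:00 replicate 1 for *Cyp4a14* (11.09, next 4.57), *Cyp4a31* (7.64, next 4.52) and *Cyp4a12a* (6.99, next 4.65), each beside kidney markers.

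The 131I response of *Cyp4a14* in the cortex at 12:00 minus that at 9:00 was -1.83, a difference not tested by itself. The F test of the response over all 3 times passed, but this was known beforehand and nothing is read from it. In the medulla the 131I samples lay wholly above the saline samples at 9:00 and wholly below them at 12:00, for *Cyp4a14* (difference of the responses -2.10) and *Cyp4a31* (-2.25). The F test over all 3 times did not pass there (adjusted p = 0.0558 and 0.0654, limma).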

How the results depend on the processing

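All Cyp4a differences kept their sign wherever the main or the alternative value was called. With the replicate number as a block, *Cyp4a14* in the liver at 12:00 was -5.46 and no longer called, and no other member's call changed. Deviations of the same number correlated above 0.1 in 19 of 59 pairs (-0.63 to 0.45). Unequal numbers were not compared, so this cannot tell whether the numbers pair the samples. In the cortex, median scaling left 2 PPARA targets that fell at 12:00 and ended the call of the *Cyp4a14* interaction (-1.62), and a fit of the compared groups alone left none (0) and ended the call of *Cyp4a14* at 12:00 (-1.56). Against saline of 9:00 and 15:00 in place of 12:00, a comparison added after seeing the data, *Cyp4a14* was -0.47 in liver and -0.0887 in cortex. *Cyp4a31* was -0.23 in liver and -0.23 in medulla. None of these was called, and 0 PPARA targets were called lower in any of the 3 tissues. Of all probes 0 were called in liver and 0 in cortex, beside 168 and 18 with saline of 12:00. Nothing is therefore read from the missing calls in liver and cortex. In the medulla 145 probes were called, beside 563 with saline of 12:00. The cause of these changes was not tested.

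With each replicate left out in turn, *Cyp4a14* at 12:00 ranged from -6.08 to -4.63 in liver and from -1.68 to -1.34 in cortex, its cortex interaction from -1.95 to -1.60 (not called in 15 of 22 fits), and *Cyp4a31* at 12:00 from -4.58 to -3.75 in liver and from -1.83 to -1.17 in medulla. PPARA targets that fell numbered 20 to 24 in liver, 2 to 5 in cortex and 0 to 6 in medulla. The count of all medulla probes called at 12:00 was 563, and 86 without saline replicate 3. Median scaling or the deposited values moved the median of all probes by at most 0.21. With 3 or 4 replicates a group and levels near background in lungs, spleen and thyroid, small Cyp4a changes there were not detectable.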
